A study of Mus musculus with 6 samples.

Results

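In mouse CD4+ T cells that carry a cancer-associated mutation of a splicing factor, 8 genes were followed: Sidt1, Tbc1d30, Fhip1a, Pigr, Cdcp1, Cd55, Cd55os and Tns4. These 8 of the 26469 genes in the count table were chosen by their measured levels, because mutant values were taken to lie wholly apart from control values. The levels that chose them are described here without a test and support nothing further. After library scaling 7 of the 8 met that description and Cd55 did not. In mutant cells 7 were higher and 1, Pigr, was lower. All 8 passed the filter on low counts.

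The study asked how the mutation affects the differentiation of regulatory T cells. Naive CD4+ cells were sorted for 6 cultures. The 3 control cultures came from Sf3b1K700E/fl mice without Cre, annotated WT, and the 3 mutant cultures from Sf3b1K700E/fl mice with Cd4Cre, annotated Sf3b1 mutation. Every culture thus carried the conditional allele, and Cd4Cre acts in the T lineage from a thymocyte stage onward. Both groups received TGF-β (5 ng/ml), hamster antibodies to CD3 and CD28, and antibodies to IL-4 and IFNγ over 36 h. The labels name the tissue as spleen and give no age, sex or pooling of animals, nor whether each culture had its own mouse, so the spread between samples may be technical in part.

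Sf3b1 encodes a core splicing protein that helps to recognise the branch point of introns, and K700E is known to make it use other 3' splice sites. The 8 genes form no single pathway. Sidt1 encodes a relative of the worm channel for double-stranded RNA. Tbc1d30 encodes a TBC domain protein, of a family that switches off the Rab GTPases of vesicle traffic. Fhip1a encodes a subunit of an adaptor between endosomes and the dynein motor. Pigr carries polymeric IgA and IgM across epithelial cells, Cdcp1 is a transmembrane substrate of Src kinases and a ligand of CD6 on T cells, and Tns4 is a short tensin of integrin adhesions, all of them best known from epithelia. Cd55, or decay-accelerating factor, takes apart the complement convertases on cell surfaces. Cd55os is a noncoding RNA named as the opposite strand of Cd55.

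The stretches upstream of 5 start sites are shown for the genes on which the account turns. They are those of the Cd55 locus, where Cd55, its copy Cd55b and Cd55os were measured at very different levels, and of Sidt1 and Pigr, which moved in opposite directions. Each is the 250 bases before the start in RefSeq, build GRCm38.p6 (not the build of the counts), 5' to 3' on the gene's strand. A promoter entry was matched for 6 of the 8 genes, Fhip1a under its older symbol Fam160a1, and not for Tbc1d30 or Tns4. Capitals mark matches to 10 motifs searched on both strands.
Cd55: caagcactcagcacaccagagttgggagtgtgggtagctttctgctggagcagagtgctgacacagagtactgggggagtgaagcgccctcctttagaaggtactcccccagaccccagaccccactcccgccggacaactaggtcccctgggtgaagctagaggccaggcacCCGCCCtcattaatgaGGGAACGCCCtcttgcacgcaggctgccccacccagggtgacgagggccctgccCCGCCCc
Cd55b: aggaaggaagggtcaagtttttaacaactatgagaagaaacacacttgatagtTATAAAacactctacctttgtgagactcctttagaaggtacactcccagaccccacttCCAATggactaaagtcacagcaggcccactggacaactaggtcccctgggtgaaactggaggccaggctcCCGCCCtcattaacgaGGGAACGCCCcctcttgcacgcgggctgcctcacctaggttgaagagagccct
Cd55os: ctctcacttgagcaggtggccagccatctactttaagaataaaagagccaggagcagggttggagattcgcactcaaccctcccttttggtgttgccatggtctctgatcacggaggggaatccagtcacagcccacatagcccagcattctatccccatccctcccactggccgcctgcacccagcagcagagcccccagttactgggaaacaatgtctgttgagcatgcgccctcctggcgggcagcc
Sidt1: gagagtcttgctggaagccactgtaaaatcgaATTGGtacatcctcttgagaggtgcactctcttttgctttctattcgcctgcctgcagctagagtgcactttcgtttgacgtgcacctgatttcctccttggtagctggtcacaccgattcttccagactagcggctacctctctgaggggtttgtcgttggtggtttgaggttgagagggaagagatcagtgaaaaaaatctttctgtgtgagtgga
Pigr: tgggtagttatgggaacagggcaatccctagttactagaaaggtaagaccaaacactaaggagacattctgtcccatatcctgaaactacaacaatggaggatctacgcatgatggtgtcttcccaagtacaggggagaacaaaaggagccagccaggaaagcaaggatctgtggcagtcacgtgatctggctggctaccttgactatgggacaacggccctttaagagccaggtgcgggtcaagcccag
The Cd55 window is chr1:130462745-130462994 on the minus strand, that of Cd55b chr1:130423044-130423293 on the minus strand and that of Cd55os chr1:130422574-130422823 on the plus strand. The Sidt1 window is chr16:44332839-44333088 on the minus strand and the Pigr window chr1:130826434-130826683 on the plus strand.

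The Cd55 and Cd55b windows had 169 identical bases among 227 aligned (74.4%), while the other pairs among the 6 members' windows and Cd55b had 51.1% to 62.2%. Both held the letters searched for NF-κB (GGG, any 2 bases, TT, any base, CC) 1 time, which 4.11% of 32851 promoter windows of this length hold. Here and below a match is one of letters only, and binding was not tested. The Sp1 motif GGGCGG (32.7% of windows) was found in Cd55, Cd55b and Cdcp1. The STAT motif TTCNNNGAA (7.02%) was found in Fhip1a, the TATA box TATAAA (12.4%) in Fhip1a and Cd55b, and the CCAAT box CCAAT (33.8%) in Sidt1, Fhip1a and Cd55b. Pigr and Cd55os held none of the 10. The letters of AP-1 (TGANTCA), CRE (TGACGTCA), RUNX (TGTGGT), Smad (GTCTAGAC) and ETS (CCGGAAG) were in none of these windows.

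Counts per library summed to between 33633196 and 43928723. Levels are in CPM, the count scaled to the TMM-adjusted library total, so that 1 count was worth 0.0246 to 0.029 CPM. Sf3b1 itself read 632, 712 and 638 CPM against 649, 593 and 639 CPM, controls first, and counts per gene do not show its allele. The 10 CD4 T cell markers were all present, summing to 2030 to 2845 CPM in controls and 2376 to 3620 CPM in mutants. Xist, the RNA of the inactive X, was at 3475 CPM in control 1 and at 0.661 CPM or less in the other 5 libraries, where Y-linked genes were expressed, so control 1 came from an animal of the other sex. Of 18323 genes tested, edgeR's quasi-likelihood test called 0 (0%) at an adjusted p under 0.05, with 1396 (7.62%) at an unadjusted p under 0.05. limma-voom called 0, with 1297 (7.08%) unadjusted, and DESeq2 called 100 of 15627 (0.64%).

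**Figure D1:**
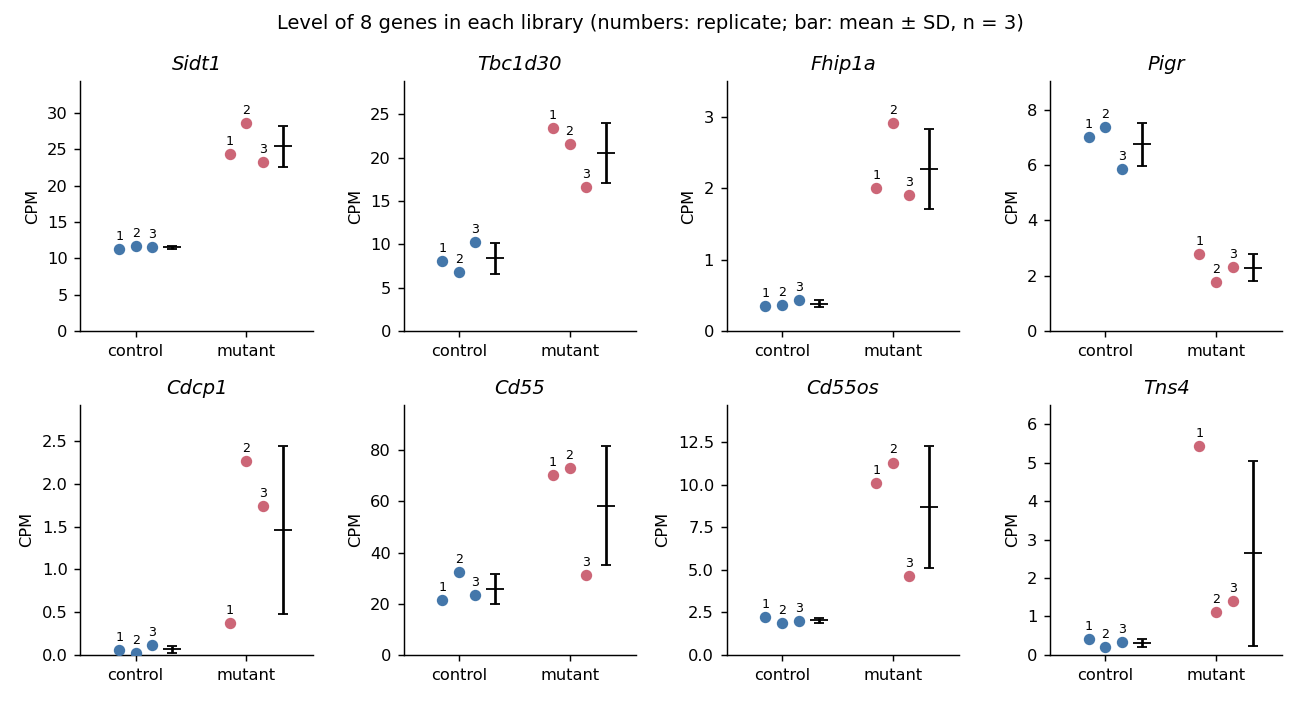
Level of each of the 8 genes in CPM (vertical axes) in the 3 control and 3 mutant libraries, with points numbered by replicate and the mean ± SD (n = 3). In Cd55, mutant 3 at 31.4 CPM lies below control 2 at 32.4 CPM, and the groups of the other 7 genes do not overlap.

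Sidt1 (ENSMUSG00000022696) read 11.3, 11.7 and 11.5 CPM in the controls and 24.3, 28.6 and 23.2 CPM in the mutants, each in the order of replicates 1, 2 and 3. The controls were nearly equal, and the lowest mutant was far above the highest control. The log2 fold change, mutant minus control, was 1.14 ± 0.16 (SE; 95% interval 0.78 to 1.5). Sidt2, its lysosomal paralog, averaged 147 ± 32.2 against 202 ± 55.1 CPM (SD, n = 3), with overlapping groups.

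Tbc1d30 (ENSMUSG00000052302), the TBC domain gene, read 8.07, 6.8 and 10.3 CPM in the controls and 23.4, 21.6 and 16.7 CPM in the mutants. Mutant 3 was the lowest mutant and still above control 3, the highest control. This came to a log2 fold change of 1.29 ± 0.22 (SE; 95% interval 0.78 to 1.80).

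Fhip1a (ENSMUSG00000051000), the endosome adaptor gene, was scarce in controls, with 12, 15 and 16 counts. It read 0.348, 0.368 and 0.441 CPM in the controls and 2.01, 2.92 and 1.9 CPM in the mutants. Its mutants lay close together, mutant 2 highest. On the log2 scale the fold change was 2.55 ± 0.35 (SE; 95% interval 1.74 to 3.36).

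Pigr (ENSMUSG00000026417), the immunoglobulin carrier, was the 1 gene lower in mutant cells. It read 7, 7.37 and 5.87 CPM in the controls and 2.77, 1.78 and 2.31 CPM in the mutants. The highest mutant, mutant 1, was below the lowest control, and the control mean was 2.95 times the mutant mean. The log2 fold change was -1.56 ± 0.27 (SE; 95% interval -2.19 to -0.93).

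Cdcp1 (ENSMUSG00000035498), the CD6 ligand, gave 2, 1 and 4 counts in controls and 13, 80 and 64 in mutants. In CPM it read 0.0581, 0.0246 and 0.11 CPM against 0.367, 2.27 and 1.74 CPM. Mutant 1 stood much nearer the controls than mutant 2 and mutant 3 did. Summed counts of 7 and 157 gave a depth-adjusted ratio of 23.3, with a 95% interval of 11 to 58.8 that covers counting error only. The fitted log2 fold change was 4.45 ± 0.84 (SE; 95% interval 2.52 to 6.39).

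Tns4 (ENSMUSG00000017607), the short tensin, gave 14, 8 and 12 counts in controls. It read 0.406, 0.196 and 0.33 CPM in the controls and 5.43, 1.1 and 1.41 CPM in the mutants. Mutant 1 was far above the other mutants, which were close to each other and above every control. The log2 fold change was 3.08 ± 0.70 (SE; 95% interval 1.46 to 4.71), and 2.03 without mutant 1.

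Cd55 (ENSMUSG00000026399), the complement regulator, read 21.4, 32.4 and 23.5 CPM in the controls and 70.3, 73 and 31.4 CPM in the mutants. Mutant 1 and mutant 2 were above every control, but mutant 3 lay just under control 2, so the groups overlapped. The log2 fold change was 1.18 ± 0.33 (SE; 95% interval 0.42 to 1.93). Under upper quartile scaling, plain library totals or a filter of 1 CPM in 3 libraries the groups were apart. They overlapped with DESeq2's size factors and in unscaled counts.

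Cd55os (ENSMUSG00000087691), the opposite-strand RNA, read 2.21, 1.89 and 2.01 CPM in the controls and 10.1, 11.3 and 4.62 CPM in the mutants. Mutant 3 was again the lowest mutant but stayed above every control. Its log2 fold change was 2.09 ± 0.37 (SE; 95% interval 1.25 to 2.94).

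Over all genes tested, groups were apart with mutants higher in 6.6% and with mutants lower in 7.48%, and apart by 2-fold or more with mutants higher in 1.77% and lower in 0.491%. A mean 2-fold or more higher was seen in 4.24%. These shares stand beside the 6 higher genes and 1 lower gene that the choice fixed, and nothing is read from them. By the gap between groups on the log2 scale, the 7 ran from 1.98 in Fhip1a, rank 2 of 18323, to 0.69 in Tbc1d30, rank 89. Cd55, with overlapping groups, had no gap. The genes were chosen for such gaps, so nothing is read from the ranks either.

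**Figure D2:**
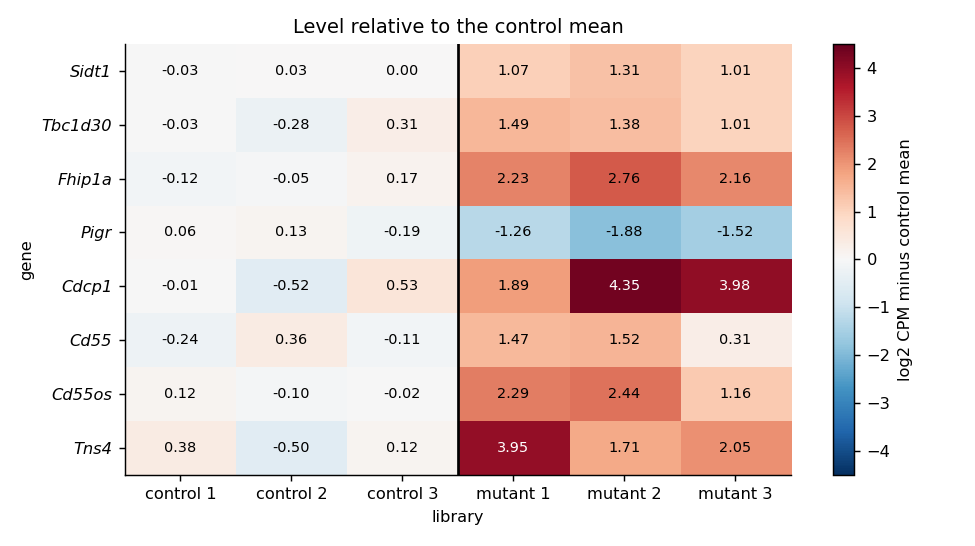
Level of each gene (rows) in each library (columns) as log2 CPM minus the mean of the 3 controls. Mutant 3 reads 0.31 for Cd55 against 1.47 and 1.52 in mutant 1 and mutant 2, and mutant 1 reads 1.89 for Cdcp1 against 4.35 and 3.98.

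The mutant libraries did not rank the genes alike. Mutant 2 was the highest mutant for Sidt1, Fhip1a, Cdcp1, Cd55 and Cd55os, and mutant 1 for Tbc1d30, Tns4 and Pigr. Mutant 3 was the lowest for 5 of the 7 higher genes. Cdcp1 and Tns4 set mutant 1 and mutant 2 in opposite order. Likeness was measured as the root mean square difference over the 6 libraries of log2 CPM minus the control mean. Sidt1 and Tbc1d30 were the closest members at 0.25, then Sidt1 and Cd55 at 0.38, and Tbc1d30 and Cd55, and Fhip1a and Cd55os, both at 0.44. Cd55 and Cd55os differed by 0.66, and Pigr and Cdcp1, the farthest apart, by 3.65.

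Levels of different genes were compared per kilobase of exon (GENCODE M21). In controls Cd55 led at 5.31 ± 1.21 CPM per kb (SD, n = 3), before Sidt1 at 2.05 ± 0.037, Pigr at 1.68 ± 0.19, Tbc1d30 at 1.25 ± 0.26 and Cd55os at 0.835 ± 0.065. Far lower were Fhip1a at 0.0729 ± 0.0092, Tns4 at 0.0602 ± 0.021 and Cdcp1 at 0.0095 ± 0.0064 CPM per kb. In mutants the order was Cd55 at 12 ± 4.79 CPM per kb, Sidt1 at 4.51 ± 0.51, Cd55os at 3.56 ± 1.46 and Tbc1d30 at 3.05 ± 0.52. Pigr followed at 0.568 ± 0.12, Tns4 at 0.512 ± 0.47, Fhip1a at 0.43 ± 0.11 and Cdcp1 at 0.215 ± 0.14 CPM per kb. Fhip1a and Tns4 lay within their spread of each other in controls. In mutants the same held for Sidt1, Cd55os and Tbc1d30 in turn, and for Pigr, Tns4 and Fhip1a, and Cdcp1 also lay within the wide spread of Tns4.

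The counts of Cd55 were shared out in part with its copy Cd55b. In the mutants Cd55 had 2486.88, 2576.83 and 1155.84 counts and Cd55b 1.12, 2.18 and 3.16, and the sums of 2488, 2579 and 1159 were whole within 0.01. In the controls Cd55b was at 0. Cd55b was at or near the 3 counts that a count of 0 allows in every library, so no fold is given. Of the 50-base stretches of Cd55 transcripts 8% also occur in Cd55b.

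Cd55os shared reads with Gm15675 (ENSMUSG00000086825), annotated on the strand opposite to it. Their counts summed to 194, 213 and 233 in controls and to 1070, 1023 and 385 in mutants, whole within 0.01 in 6 of 6 libraries. Exons of Gm15675 lie opposite 44.6% of the exon bases of Cd55os, those of Cd55b opposite 5.95%, and those of Cd55 opposite none. Cd55os received 31.3% to 44.1% of the summed reads, and its own level rests on that division. The sum averaged 5.76 ± 0.60 CPM in controls and 23.2 ± 11.1 CPM in mutants (SD, n = 3), 4.03 times as high. Gm15675 alone read 3.43, 3.34 and 4.41 CPM against 20.1, 17.7 and 5.84 CPM, again with mutant 3 the lowest mutant.

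In RefSeq the start of Cd55os is 219 bases from that of Cd55b and 39.9 kb from that of Cd55, and its span overlaps both. In GENCODE M21 the span of Cd55os overlaps that of Cd55b and not that of Cd55. Per 100 counts of Cd55 there were 10.3, 5.83 and 8.56 of Cd55os in controls and 14.4, 15.5 and 14.7 in mutants. The ratio was nearly equal in the 3 mutants, but it rests on the division of reads with Gm15675. With the undivided sum of Cd55os and Gm15675 there were 26.3, 16.1 and 27.3 counts per 100 of Cd55 in controls and 43, 39.7 and 33.3 in mutants. Groups were apart on both measures, and on the undivided one mutant 3 was the lowest mutant. Cd55 and Cd55os were both chosen by their levels in these libraries, so nothing is read from that separation.

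**Figure D3:**
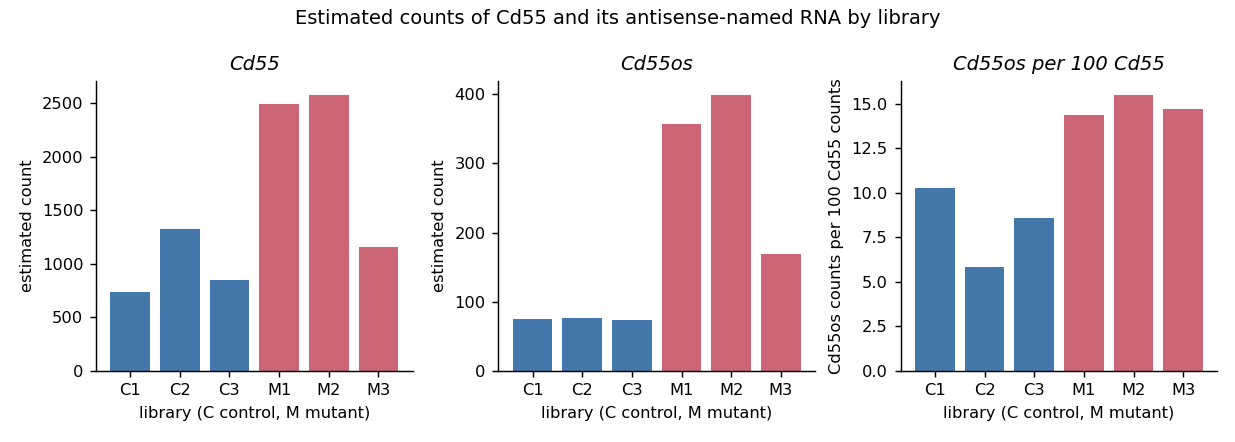
Estimated counts of Cd55 (left) and Cd55os (middle) and counts of Cd55os per 100 counts of Cd55 (right) in the control and mutant libraries. Mutant 3 is the lowest mutant for both genes, while its ratio of 14.7, with reads divided as deposited, lies between 14.4 in mutant 1 and 15.5 in mutant 2.

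Other members also lie over annotated genes. Sidt1 has 8.2% of its exon bases opposite Gm26732, and Tbc1d30 has 3.89% opposite Gm48435. Fhip1a shares 4.29% with Gm37240 on its own strand, which read 0.0871, 0.123 and 0.0551 CPM against 1.07, 1.1 and 0.299 CPM, higher in each mutant as Fhip1a was. In controls Gm37240 held only 3.06, 5.19 and 2.41 counts, near the level of 3 counts. Cdcp1 transcripts hold 0% of 50-base stretches found in another gene, Pigr 0.458% and Tns4 0.841%.

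Most tested genes beside the members showed small differences. Of 65 protein-coding neighbours in the table, up to 5 on each side, 53 were tested and 0 passed edgeR's test (0% of all genes did). Their mean was higher in mutants for 30 and lower for 23, beside 52.9% higher over all genes tested. Their median log2 fold change was 0.04 against 0.02 over all genes. Groups were apart in 11.3% of them, beside 14.1% of all genes tested. Beside Pigr lie Fcamr and Fcmr, receptors that bind IgM. Fcamr read 1.57, 1.38 and 1.71 CPM against 0.0283, 1.84 and 1.11 CPM and Fcmr 1.97, 2.43 and 2.01 CPM against 0.876, 3.23 and 1.41 CPM. In both, mutant 2 was above every control, whereas its Pigr was the lowest of the 6.

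Between Cd55 and Pigr, whose starts are 364 kb apart, Yod1 averaged 54.1 ± 4.65 against 54.9 ± 11.7 CPM and Pfkfb2 10.5 ± 1.15 against 11.8 ± 1.18 CPM (SD, n = 3). Beyond Cd55b lies Cxcr4, a chemokine receptor gene, which read 14.5, 9.65 and 9.53 CPM against 68.1, 22.5 and 11.8 CPM, with overlapping groups. Beside Sidt1, Spice1, a centriole gene, read 21.9, 21.3 and 21 CPM against 13.3, 15.7 and 14.5 CPM, lower in each mutant, and Usf3 averaged 129 ± 10.7 against 130 ± 16.4 CPM. Beside Tbc1d30, Lemd3 averaged 49.5 ± 4.3 against 49.9 ± 7.04 CPM. Of 9 tested neighbours of Fhip1a 4 had a higher and 5 a lower mean in mutants. Groups were apart in 1 (11.1%, beside 14.1% of all genes tested), namely Fhdc1. It read 0.145, 0.0737 and 0.0826 CPM against 0.537, 0.453 and 0.353 CPM, with 5, 3 and 3 counts in controls. Beside Tns4, Igfbp4 read 132, 275 and 169 CPM against 1035, 170 and 198 CPM and the homing receptor gene Ccr7 267, 206 and 273 CPM against 650, 271 and 206 CPM. Both were highest in mutant 1, as Tns4 was, and both overlapped.

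**Figure D4:**
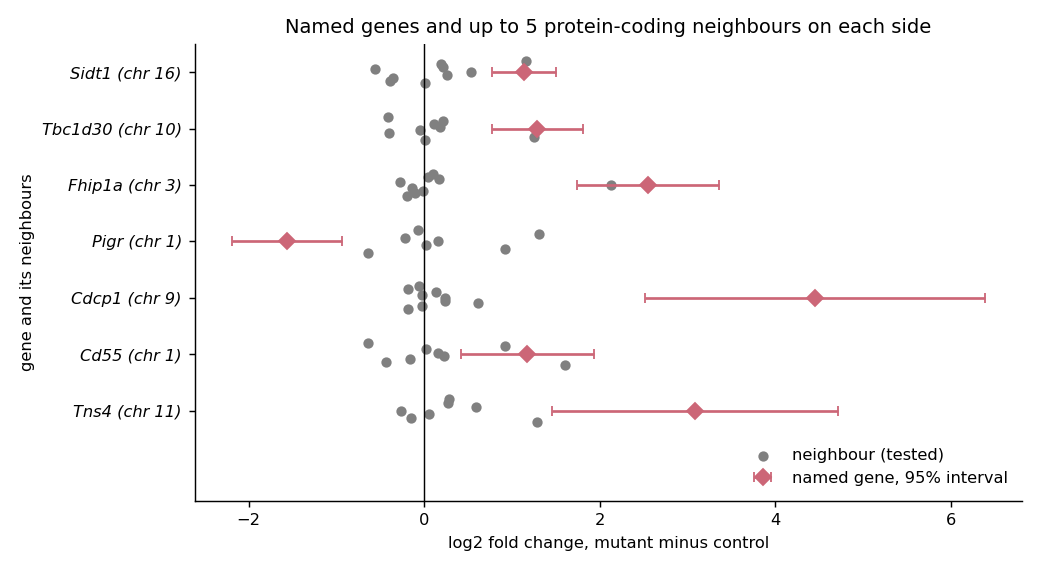
Log2 fold change, mutant minus control (horizontal axis), of the named genes (diamonds, 95% intervals) and of their tested protein-coding neighbours (grey points). The median of the 53 neighbours is 0.04, and the named genes lie between -1.56 in Pigr and 4.45 in Cdcp1.

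Related genes were read from 7 lists without the members, and 0 of their genes passed edgeR's test. The share of a list whose groups were apart stands beside 14.1% of all genes tested, and the median beside 0.02. A higher mean in mutants was seen in 52.9% of all genes tested. On double-stranded RNA, 7 of 12 tested genes had a higher and 5 a lower mean in mutants (median log2 fold change 0.08), and groups were apart in 0%. Dhx58, which modulates RNA sensors, averaged 2.62 ± 0.52 against 4.42 ± 1.9 CPM and Tarbp2, a Dicer partner, 28.5 ± 4.76 against 34.3 ± 3.03 CPM (SD, n = 3).

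Of 36 other TBC domain genes 21 had a higher and 15 a lower mean (median 0.03), with groups apart in 11.1% (2 higher and 2 lower). Tbc1d31 averaged 34.8 ± 7.78 against 19.5 ± 2.79 CPM, Grtp1 1.34 ± 0.25 against 2.45 ± 0.79 CPM and Tbc1d10c 63.3 ± 9.87 against 89.6 ± 29.3 CPM. Of 16 genes around Fhip1a 11 had a higher and 5 a lower mean (median 0.02), and groups were apart in 6.25%, namely Vps18, a vacuolar sorting gene, at 17.3 ± 1.36 against 22.7 ± 3.46 CPM. Rab5c, an early endosome GTPase gene, averaged 72.4 ± 6.68 against 86.3 ± 17.9 CPM. The paralogs of Fhip1a had overlapping groups: Fhip1b averaged 32.7 ± 4.89 against 33.5 ± 4.79 CPM, Fhip2a 42.3 ± 2.21 against 52.1 ± 19.2 CPM and Fhip2b 14.1 ± 0.42 against 14.2 ± 1.44 CPM.

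Around Pigr 4 genes were tested, 2 with a higher and 2 with a lower mean (median 0.06), all overlapping. Trim21, a cytosolic antibody receptor, averaged 14.5 ± 1.58 against 18.4 ± 5.89 CPM and Fcgr3, an IgG receptor gene, 0.331 ± 0.18 against 0.545 ± 0.59 CPM. Around Cdcp1 10 of 12 genes had a higher mean and 2 a lower one (median 0.29), with groups apart in 8.33%. Of the 10 CD4 T cell markers 9 had a higher mean and 1 a lower one, also with a median of 0.29. Cd5 and Lck are in both lists. Cd6, the receptor of Cdcp1, averaged 221 ± 38.8 against 288 ± 29.5 CPM, its relative Cd5 252 ± 47.2 against 354 ± 55.4 CPM and Alcam, another CD6 ligand, 9.18 ± 4.01 against 16.1 ± 6.76 CPM (SD, n = 3).

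Of 8 other complement genes 5 had a higher and 3 a lower mean (median 0.20), with groups apart in 12.5%, namely Cr2, a complement receptor of B cells, at 0.535 ± 0.26 against 1.69 ± 1.31 CPM. C3 averaged 1.71 ± 0.66 against 5.18 ± 4.73 CPM and C1qbp 213 ± 33 against 158 ± 53.8 CPM. Of 18 adhesion genes 11 had a higher and 7 a lower mean (median 0.16), with groups apart in 22.2% (1 higher and 3 lower). The β3 integrin gene Itgb3 averaged 9.97 ± 2.26 against 24 ± 10 CPM, vinculin (Vcl) 44.5 ± 1.82 against 34.1 ± 2.7 CPM and talin 2 (Tln2) 6.71 ± 0.74 against 4.48 ± 1.28 CPM. The longer tensins overlapped, with Tns1 at 39.2 ± 6.04 against 44.4 ± 20.1 CPM, Tns2 at 0.643 ± 0.11 against 0.895 ± 0.38 CPM and Tns3 at 0.656 ± 0.21 against 0.409 ± 0.3 CPM.

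Markers of other cell types were read in the same libraries, since Pigr, Cdcp1 and Tns4 are best known from epithelia. In bulk RNA a change in the number of cells of a type and one in RNA per cell cannot be told apart. Of 10 epithelial markers 6 were in the table, summing to 1.29 to 2.32 CPM in controls and 3.64 to 11.2 CPM in mutants. Epcam read 0.348, 0.295 and 0.303 CPM against 2.15, 1.56 and 1.03 CPM, Cdh1 (E-cadherin) 0.813, 0.688 and 0.578 CPM against 6.75, 3.2 and 1.2 CPM and Cldn4 0.755, 0.0737 and 0.0551 CPM against 1.5, 1.3 and 1.22 CPM. Only these 3 were tested, and in each the groups were apart with mutants higher, as in 6.6% of all genes tested. Cldn4 was at or below the level of 3 counts in control 2 and control 3. The keratin gene Krt18 reached 0.367 CPM at most and Esrp1 0.029 CPM. Cdcp1 and Tns4 were higher in mutants as the 3 tested markers were, and Pigr was lower. The part of epithelial RNA in the levels of Pigr, Cdcp1 and Tns4 was not tested.

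The 6 B cell markers all had a higher mean in mutants, beside 52.9% of all genes tested. They summed to 2.63 to 6.5 CPM in controls and 4.01 to 45.2 CPM in mutants. Groups were apart in 1 of them (16.7%, beside 14.1% of all genes tested), Cd79a, which read 0.929, 0.467 and 0.826 CPM against 1.84, 5.15 and 2.2 CPM, with each mutant above every control as in Cdcp1. Ms4a1 read 0.319, 0.0491 and 0.0275 CPM against 0, 7.68 and 0.761 CPM and Pax5 0.784, 0.0246 and 0.138 CPM against 0.0848, 11.5 and 1.68 CPM, both overlapping. These 3 were highest in mutant 2, where Cdcp1 was highest too. The part of B cell RNA in Cdcp1 was not tested. Of the endothelial and stromal markers 2 were tested, 1 with a higher and 1 with a lower mean in mutants. The 4 measured summed to 20.6 to 27.8 CPM in controls and 32.3 to 152 CPM in mutants, most of it from Pecam1. Pecam1 read 18.9, 26.9 and 25.2 CPM against 151, 47.5 and 30.6 CPM, highest in mutant 1 as Tns4 was. The rise of the sum was thus mainly that of 1 gene, and the other tested marker had a lower mean in mutants. The part of Pecam1 in Tns4 was not tested. CD8 markers summed to 5.81 to 40.4 CPM in controls and 6.56 to 17.3 CPM in mutants, NK markers to 1.87 to 6.36 and 1.85 to 9.83, and plasma cell markers to 112 to 126 and 61.3 to 121. Of the 4 plasma cell markers 2 passed the filter on low counts. Jchain did not, and it reached 0.386 CPM at most, so the sums rest on the other plasma cell markers. In no library did the macrophage and dendritic markers exceed 3.95 CPM, the platelet markers 2.01, the erythroid markers 1.25 or the neutrophil markers 0.0737.

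By the likeness measure over 6 libraries, and leaving out the 8 themselves, the genes nearest to Sidt1 were Gm10553 (0.11), Gm9725 (0.12) and 5430431A17Rik (0.15). Those nearest to Tbc1d30 were Gm47232 (0.14), Tspan17 (0.14) and 4930517G19Rik (0.15). For Cd55 they were Gal3st4 (0.13), Lmtk3 (0.14) and Dram1 (0.17), and for Pigr Gm12537 (0.21), Arhgef16 (0.33) and Gm28053 (0.36). Outside the 8, Cd55os was most like Csf1 (0.21), Epcam (0.24) and ENSMUSG00000120970 (0.26), and Fhip1a most like Epcam (0.41), A930030B08Rik (0.44) and Sspo (0.47). For Tns4 they were Grb7 (0.49), Pdlim4 (0.51) and ENSMUSG00000121393 (0.58). Grb7, an adaptor gene, read 1.36, 0.737 and 0.964 CPM against 11.6, 1.9 and 2.53 CPM, with mutant 1 far above the rest. Cdcp1 had no gene so close: Blk, a B lineage kinase gene (0.72), Igkc (0.90) and Sspo (1.04) came first. Blk read 0.0871, 0 and 0.0826 CPM against 0.537, 1.42 and 0.543 CPM, with controls at or below the level of 3 counts. All these genes were picked for their pattern over the same 6 libraries. A pattern shared with a member was thus fixed by the choice, and nothing is read from it.

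**Figure D5:**
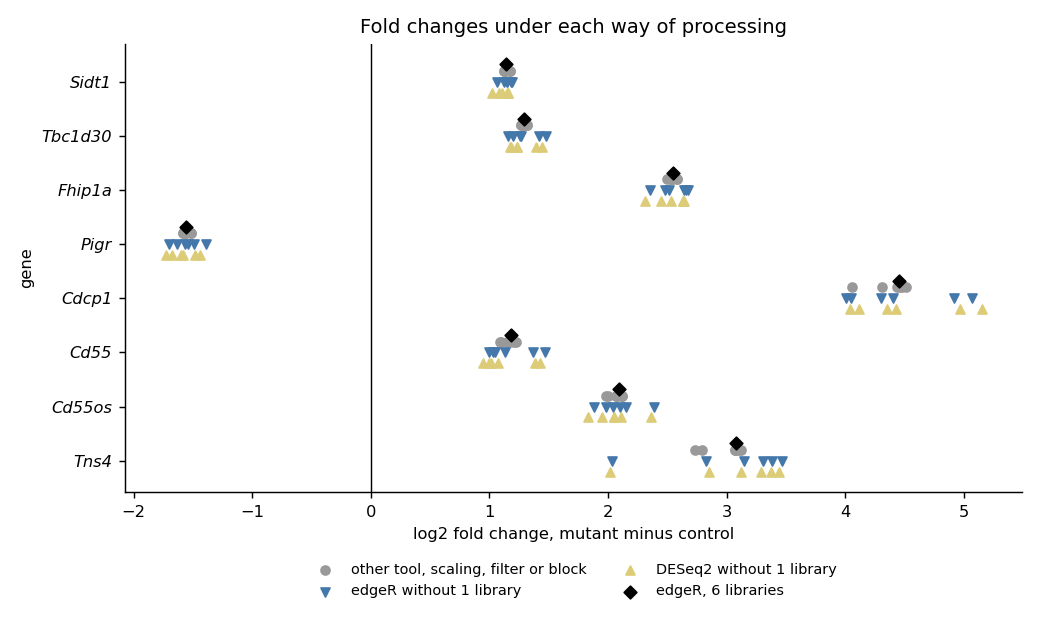
Log2 fold change, mutant minus control (horizontal axis), of the 8 genes in edgeR on 6 libraries (diamonds), under other tools, scalings, filters or a replicate block (circles) and without each library (triangles). The sign is the same in each fit drawn, and Tns4 moves from 3.08 to 2.03 in edgeR without mutant 1.

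In edgeR without each library in turn, Sidt1 ran from 1.06 to 1.19, the narrowest range of the 8. Tbc1d30 ran from 1.16 without control 2 to 1.48 without control 3, Fhip1a from 2.35 without mutant 2 to 2.67 without control 3, and Pigr from -1.70 without mutant 1 to -1.39 without mutant 2. Cd55 ran from 1.00 without mutant 2 to 1.47 without mutant 3, and Cd55os from 1.88 to 2.39 in the same fits. Cdcp1 ran from 4.01 without mutant 2 to 5.07 without control 3, and Tns4 from 2.03 without mutant 1 to 3.47 without mutant 2.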

How the data were processed

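The submitters' processing notes name STAR 2.7.8a, Partek and the builds GRCm39 and mm39; their roles, the annotation and the strand setting of the counting are not stated in what was used here. Total RNA was depleted of ribosomal RNA, per the labels' protocols. The values the authors deposited are estimated counts by gene. They were rounded, and the test planned for whole counts was kept. Of 26469 rows, 863 had no symbol and 32 shared one, and these were named by ID.

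In R 4.3.3, filterByExpr (minimum count 10) kept 18323 genes holding 99.92% of counts. Mutant minus control was fitted with edgeR 4.0.16 (TMM, robust quasi-likelihood test, Benjamini-Hochberg over all genes tested, threshold 0.05). The SE is the size of the log2 fold change over the root of its F statistic, and log2 CPM used a prior count of 2. At this depth 3 counts are 0.0737 to 0.0871 CPM. Alternatives were DESeq2 1.42.0, limma 3.58.1, other scalings and filters, the replicate number as a block, and dropping each library. DESeq2 left 10842 rows without an adjusted p. The scripts were tested on simulated data.

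The members and lists were chosen with earlier results of these data known. Named genes are the 8, Sf3b1, paralogs, flanking genes, the 3 of each list with the smallest p, the 3 most like each member, and 3 of like standing. Vps18, Cxcr4, Fhdc1, Yod1, Pfkfb2, overlapping genes and single markers were named after their values were seen. Promoters and gene order came from RefSeq (GRCm38.p6) and exons from GENCODE M21, both of an older build than the counts. Protein sequences were not used here, and some genes that the rule would name are not reported here.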

Additional observations from a re-analysis of the deposited data

How the results depend on the processing

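DESeq2 called 100 genes where edgeR called 0, 52 higher and 48 lower in mutant cells. Leaving out 1 library, edgeR called 0 each time, with 618 to 2426 genes at an unadjusted p under 0.05, while DESeq2 called 13 without control 1, 17 without control 3, 126 without control 2, 143 without mutant 2, 215 without mutant 1 and 374 without mutant 3, an addition chosen after seeing the data. The cause was not tested. Other scalings, filters and limma-voom called 0. The number of the 8 genes whose groups were apart was 7, and 8 with upper quartile scaling, with plain library totals, and without control 2 or mutant 3. With 1 CPM required in 3 libraries Cdcp1 was not tested, and the other 7 genes, Cd55 among them, were all apart. Depth limits Cdcp1, Fhip1a and Tns4, whose control libraries held 16 counts or fewer.

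With the replicate number as a block edgeR called 0 genes, with 991 at an unadjusted p under 0.05. Deviations of same-numbered samples from their group means correlated at -0.048, -0.067 and -0.029 across 18323 genes, which are not independent. No sample correlated best with its own number. Correlations this small, with 3 samples per group, cannot decide whether the numbers pair the samples. The block turned no sign among the 8.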

Other observations

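Genes of like standing outside the 8, chosen with earlier results known, are given as values. The tyrosyl-tRNA synthetase gene Yars read 171, 131 and 158 CPM against 52.8, 71.3 and 74.5 CPM, controls first, lower in each mutant. ENSMUSG00000121393, which has no symbol in the table, read 0.29, 0.123 and 0.275 CPM against 2.77, 2.07 and 0.897 CPM. Slc6a12, a betaine and GABA transporter gene, read 0.0581, 0.0246 and 0 CPM against 1.47, 0.368 and 1.41 CPM, with controls at or below the level of 3 counts.

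Fhip1a and Gm37240, which overlap on the same strand, summed to whole counts in 0 of 6 libraries. Their sum averaged 0.48 ± 0.037 CPM in controls and 3.1 ± 0.92 CPM in mutants (SD, n = 3).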
